A study of Musa acuminata AAA Group with 12 samples.

Results

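The day 7 against day 1 comparison under chitosan coating concerns 6 of the 12 libraries of the study, namely 1A_a, 1A_b and 1A_c from day 1 and 7A_a, 7A_b and 7A_c from day 7. All are RNA-seq libraries of fruit pulp of Cavendish banana (Musa acuminata, AAA Group), and all 6 come from ethylene-treated fingers that were dipped in a chitosan solution of 1.25%. The uncoated control libraries of the same days (1K and 7K, 3 each, also from ethylene-treated fingers) are used here only to read out the same genes in other fruit and to estimate the spread. The letters a, b and c are biological replicates, and how many fingers or bunches stand behind each is not given in the sources used here. Genes were taken by their ID when the FPKM (a fragment count scaled to the length of the gene and the depth of the library) was at least 1 in at least 3 of the 6 coated libraries, which left 18071 of 35270 genes.

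Banana is a climacteric fruit, in which a burst of ethylene production starts ripening. During ripening the pulp starch is broken down to sugars, cell wall enzymes soften the tissue, and aroma compounds form. A chitosan film on the peel limits gas exchange and is applied to slow these processes. The comparison of day 7 with day 1 describes how far the pulp transcriptome moved while the film was on the fruit. The deposited tables give gene IDs of the DH Pahang version 2 genome without symbols or products, and none of these IDs is in the RefSeq gene table at hand, which is of another banana assembly (0 matches). Ripening enzymes and pulp markers could therefore not be looked up by name. Genes are described here by level, size of change, position and response in the control fruit. No sequence is shown for the same reason.

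The depth behind the values was taken from the confidence intervals in the tables, whose upper bound lies above the FPKM by an amount that depends on the number of fragments. The implied fragments per library were 11076700 to 13583600 in 5 of the 6 coated libraries and 6135600 in 7A_c, so results are also given without 7A_c. In the paper, however, 7A_c had the most reads of the coated libraries, and more detected transcripts than 1A_a or 1A_b. The cause of this conflict with the deposited values was not tested. A difference in the GC percentage of the reads also ran through the coated libraries. By the sequencing statistics of the paper, 1A_a, 1A_b and 7A_c had a lower and 1A_c, 7A_a and 7A_b a higher read GC. The percentages are given there as whole numbers and lie close together. The paper's percentage of mapped reads splits the coated libraries in the same way. The name GC group thus marks a library difference whose source was not tested. The lower GC libraries thus made up 2 of 3 libraries at day 1 and 1 of 3 at day 7. The control libraries were balanced, with 1 lower and 2 higher GC libraries on each day. Among the coated libraries alone, day was the leading principal component of log2(FPKM + 1) with 72.6% of the variance, and scores ran from -98.8 to -62.5 at day 1 and from 53.9 to 103 at day 7. The next component, with 23.4%, split the libraries by GC group. The lower GC libraries scored from 18.4 to 86.3 on it and the others from -73.3 to -26.0. Within a day, Pearson's r across genes was 0.991 and 0.992 for libraries of like GC and 0.897 to 0.929 otherwise. The median absolute difference on the log2 scale was 0.12 between 1A_a and 1A_b and 0.10 between 7A_a and 7A_b. It was 0.49 between 1A_c and the mean of the former, and 0.62 between 7A_c and the mean of the latter. The main results below are therefore also given inside the GC groups or after blocking on them.

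**Figure D1:**
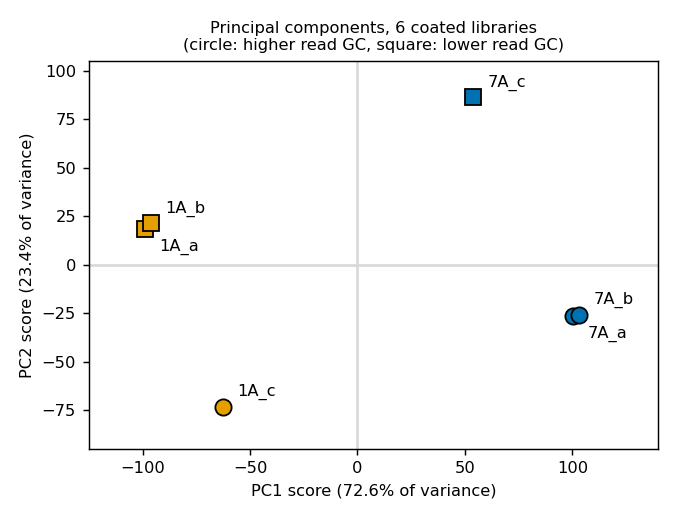
Scores of the 6 coated libraries on the first and second principal component of log2(FPKM + 1) over 18071 genes, coloured by day (orange, day 1; blue, day 7). The days separate on the horizontal axis (72.6% of the variance) and the read GC groups on the vertical axis (23.4%), with 1A_c at -73.3 and 7A_c at 86.3 apart from the other libraries of their day.

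From day 1 to day 7 of coated fruit, 8804 of the 18071 tested genes changed, which is 48.7%. Of these, 5322 genes (29.5%) were higher and 3482 genes (19.3%) were lower at day 7 (limma, Benjamini-Hochberg adjusted p-value under 0.05). In 9299 genes, or 51.5%, each library of one day lay beyond all 3 of the other day. In bulk pulp, fewer cells of a type and less RNA per cell cannot be told apart. The balance between rising and falling genes depended on the scaling, because the median log2 change over all tested genes was 0.32 in FPKM as deposited and 0.05 with median-of-ratios scaling. With that scaling 4130 genes were higher and 4545 lower, so the share of higher genes among those called went from 60.4% to 47.6%. Without 7A_c, 10251 genes were called, 6794 higher and 3457 lower. In that set all day 7 libraries belong to the higher GC group. Blocking on GC group over all 12 libraries gave 13323 called genes, 8082 higher and 5241 lower, and all 8804 genes were among them with the same sign. The block together with median-of-ratios scaling gave 6723 higher and 6459 lower genes.

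A set of 7272 genes (40.2%) was called the same way in 4 fits, namely the one reported, the one with median-of-ratios scaling, the one with the GC group as a block and the one without 7A_c. It held 4106 genes that were higher and 3166 that were lower at day 7. Changes of at least 4-fold on the log2(FPKM + 1) scale were found in 758 of the former and 911 of the latter. At least 16-fold changes were found in 102 that rose and 131 that fell, and 32 and 45 genes reached 32-fold. These counts are for FPKM as deposited, and the scale understates changes of genes with low FPKM.

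The change was computed separately inside each GC group, as 7A_c minus the mean of 1A_a and 1A_b, and as the mean of 7A_a and 7A_b minus 1A_c. These estimates share no library. Across the 18071 genes, which are not independent replicates, they had a Pearson r of 0.925, and 87.4% of the genes had the same sign in both. The SD of the log2 change over genes was 1.25 in the lower and 1.29 in the higher GC libraries. The median was 0.13 in the former and 0.26 in the latter. Day 7 was higher in 55.8% and 60.3% of all genes, respectively. Day 7 of the lower GC group and day 1 of the higher GC group each rest on 1 library.

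**Figure D2:**
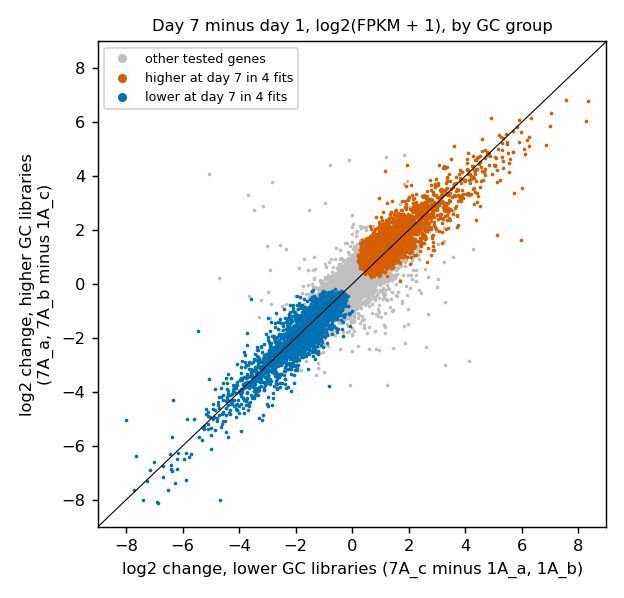
Log2 change from day 1 to day 7 for each tested gene, in the lower GC libraries (horizontal) and in the higher GC libraries (vertical), on the log2(FPKM + 1) scale. The points follow the diagonal with an r of 0.925, and genes called the same way in 4 fits are coloured by direction (4106 higher, 3166 lower).

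Genes were named by a rule that asked for a call in all 4 fits, no overlap between the days and at least 10 implied fragments in each library of the higher day. The largest rise on the log2 scale was that of Ma03_g11920 (chromosome 3, 9256582 to 9258555). Its FPKM was 1.83 in 1A_a, 2.49 in 1A_b and 9.23 in 1A_c, and 1170 in 7A_a, 1116 in 7A_b and 1012 in 7A_c. The day 1 libraries differed among each other, the higher GC library being highest, but every day 7 library lay over 100 times above the highest of them. The mean went from 4.52 ± 4.10 to 1099 ± 80.5 (SD, n = 3 each), which is 243-fold, or 7.88 ± 0.41 (SE) as log2 (limma, adjusted p = 2.30e-07). Inside the GC groups the log2 change was 8.33 in the lower and 6.80 in the higher group. In control fruit the same gene went from 5.87 ± 2.15 to 1175 ± 73.2 (SD, n = 3 each), and the difference of the log2 changes was 0.42 ± 0.57 (SE; limma, adjusted p = 0.90).

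The largest rise in FPKM was that of Ma06_g18530 (chromosome 6, 12670940 to 12672146). Its FPKM was 686 in 1A_a, 726 in 1A_b and 628 in 1A_c at day 1, and 9255 in 7A_a, 9359 in 7A_b and 10106 in 7A_c at day 7. The groups were tight and far apart. The lower GC libraries were the higher ones on both days, by little against the change between days. The mean went from 680 ± 49.2 to 9573 ± 464 (SD, n = 3 each), a 14.1-fold rise, or 3.81 ± 0.18 (SE) as log2 (limma, adjusted p = 1.34e-07). The gene was thus already abundant at day 1. In control fruit it reached 12344 ± 919 (SD, n = 3), and the difference between the log2 changes, coated minus control, was -0.14 ± 0.25 (SE; limma, adjusted p = 0.93).

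The largest fall on the log2 scale was that of Ma08_g20650 (chromosome 8, 34771064 to 34772948). It had an FPKM of 1282 in 1A_a, 1255 in 1A_b and 851 in 1A_c, and of 3.998 in 7A_a, 2.75 in 7A_b and 5.03 in 7A_c. All day 7 libraries were near the bottom of the range, on 59 to 91 implied fragments each. The mean was 1130 ± 241 at day 1 and 3.93 ± 1.14 at day 7 (SD, n = 3 each), or -7.85 ± 0.53 (SE) as log2 (limma, adjusted p = 1.10e-06). Inside the GC groups the log2 change was -7.72 and -7.62. Control fruit had 624 in 1K_a, 628 in 1K_b and 918 in 1K_c at day 1, with a mean of 723 against 1130 in coated fruit. At day 7 it had 7.36 in 7K_a, 13.2 in 7K_b and 49.1 in 7K_c, all above the coated libraries. The highest of these, 7K_c, is of the lower GC group. The difference in the day effect was -2.55 ± 0.74 (SE) and did not pass the test (limma, adjusted p = 0.11).

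The largest fall in FPKM was that of Ma02_g16130 (chromosome 2, 23605911 to 23608105). Its FPKM was 29866 in 1A_a, 28587 in 1A_b and 16884 in 1A_c at day 1, and 7603 in 7A_a, 7166 in 7A_b and 11652 in 7A_c at day 7. The day 1 and day 7 libraries did not overlap, and the lower GC libraries were the higher ones on both days. The mean was 25112 ± 7155 at day 1 and 8807 ± 2473 at day 7 (SD, n = 3 each), or -1.50 ± 0.41 (SE) as log2 (limma, adjusted p = 0.012). Inside the GC groups the change was -1.33 and -1.19. The call was lost when no filter on low FPKM was applied (limma, adjusted p = 0.091), and quantile normalization moved the log2 change to -0.85. It was near the threshold when 1A_a, 1A_b, 7A_a or 7A_b was left out (limma, adjusted p = 0.0443 to 0.0499). In control fruit the mean went from 20658 ± 5953 to 11487 ± 4805 (SD, n = 3 each), and the days overlapped. The log2 change there was -0.89 ± 0.41 (SE; limma, adjusted p = 0.10).

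**Figure D3:**
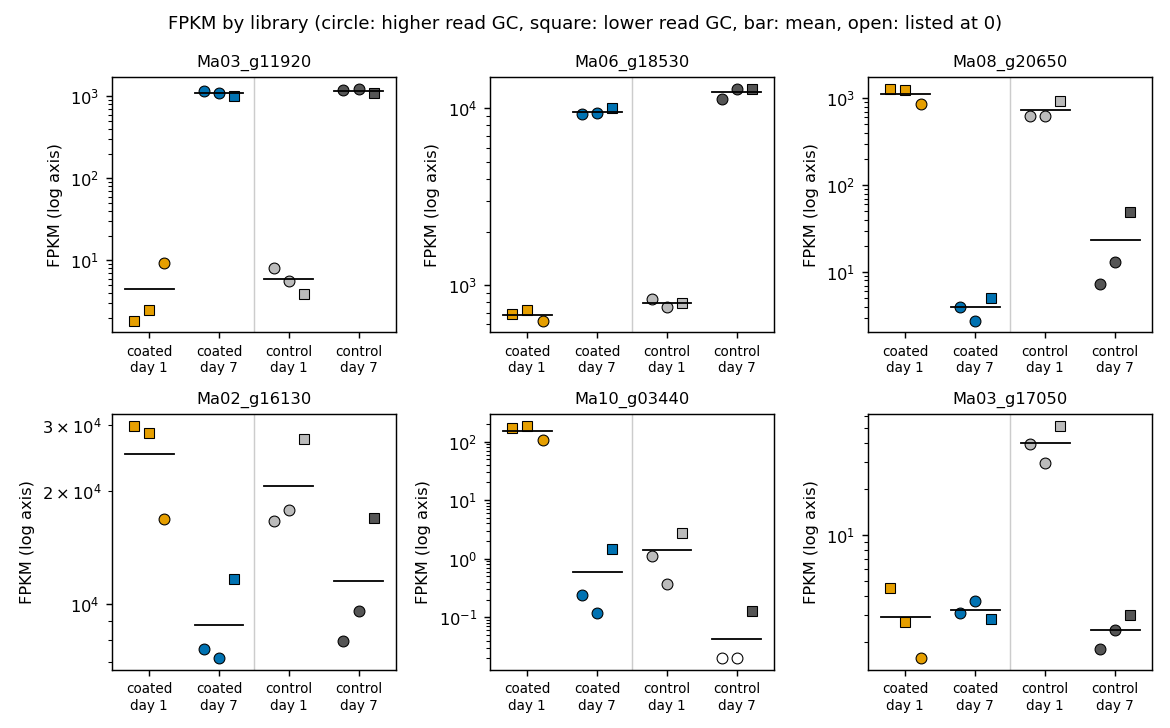
FPKM on a log axis of 6 genes in the coated libraries (left of the grey line) and the control libraries (right), with bars at the means of 3 libraries and open symbols, drawn at 0.02, for values listed at 0. Ma03_g11920 and Ma06_g18530 rose and Ma08_g20650 and Ma02_g16130 fell with no overlap between coated days, Ma10_g03440 was above 100 FPKM only in coated fruit of day 1, and Ma03_g17050 was at 1.56 to 4.49 FPKM in all coated libraries.

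The 20 largest rises chosen in the same way lay on 9 chromosomes, with log2 changes from 5.49 to 7.88. Their median FPKM of the group means was 2.67 at day 1 (range 0.17 to 43.7) and 311 at day 7 (range 52.1 to 2004). No pair of them were neighbours among the tested genes. The 20 largest falls were also spread over 9 chromosomes, with log2 falls of 6.39 to 7.85 in size and 1 neighbouring pair. Their median FPKM was 306 at day 1 (range 141 to 10390) and 1.04 at day 7. These genes were chosen on the coated libraries, so their levels there are a description. The control libraries were not used to rank them, although they enter the estimate of the spread. In control fruit, where 46.5% of all tested genes were called, all 20 rises and all 20 falls had the same sign, with 19 and 20 called.

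Genes at the limit of detection were also counted. An FPKM under 1 in all 3 day 1 libraries and of at least 1 in all 3 day 7 libraries was found in 813 genes, and the reverse in 717 genes. These genes were chosen for the separation of the days and passed the filter only through the day on which they are high, so no count of calls is read from them. Most of them stayed low. The median FPKM on the day of expression was 2.66 for the former and 2.98 for the latter, and 74 and 100 genes, respectively, reached 10. At least 100 FPKM was reached by 1 gene that came on and by 7 that went off. Only 24 genes were listed at 0 in all 3 day 1 libraries with at least 1 FPKM in every day 7 library, and 46 genes showed the reverse.

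Among the 80 genes with a mean FPKM of at least 1000 over the 6 libraries, 34 (42.5%) were lower and 18 (22.5%) higher at day 7, against 19.3% and 29.5% of all tested genes. Their median log2 change was -0.52 against 0.32 for all tested genes. The 9883 genes with a mean between 1 and 10 had a median of 0.40, with 2917 higher and 1713 lower. The median of the 80 genes was below 0 in both GC groups, with -0.41 in the lower and -0.54 in the higher group. Lower genes outnumbered higher ones among them with each scaling, and their median relative to that of all genes was -0.84 as deposited, -0.91 with median-of-ratios scaling, -0.81 with a common sum and -0.49 with quantile normalization.

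In the pooled comparison the share of falling genes was lower among long loci, while the share of rising genes was similar from 1000 bases on. Of the 2721 loci of at least 10000 bases, introns included, 28.4% were higher and 8.31% lower at day 7, with a median log2 change of 0.56. Loci of 1000 to 2000 bases were higher in 31.3% and lower in 30.5%, with a median of 0.15, and those of 500 to 1000 bases in 24.1% and 28.4%, with a median of -0.01. The relation depended on level. At a mean FPKM of 10 to 100, 32.1% of loci of 1000 to 2000 bases and 8.05% of those of at least 10000 were lower in all 4 fits. At 100 to 1000 FPKM these shares were 35.5% and 35.1%, the latter of 37 loci. In the higher GC libraries the median change ran from -0.19 for loci under 500 bases to 0.43 for those of at least 10000. In the lower GC libraries it was 0.16 and 0.14 for the same bands, and no such order was seen. The GC group itself moved with length. Lower minus higher GC libraries differed by a median of 0.41 at day 1 and 0.84 at day 7 for loci under 500 bases, and by -0.61 and -0.90 for those of at least 10000. With the GC group as a block and median-of-ratios scaling, 41.8% of loci of 1000 to 2000 bases were lower, against 28.0% of those of at least 10000. In that fit the median log2 change was -0.17 for loci under 500 bases and 0.135 for those of at least 10000. The part of read GC in the relation of length and ripening was not tested beyond these values.

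**Figure D4:**
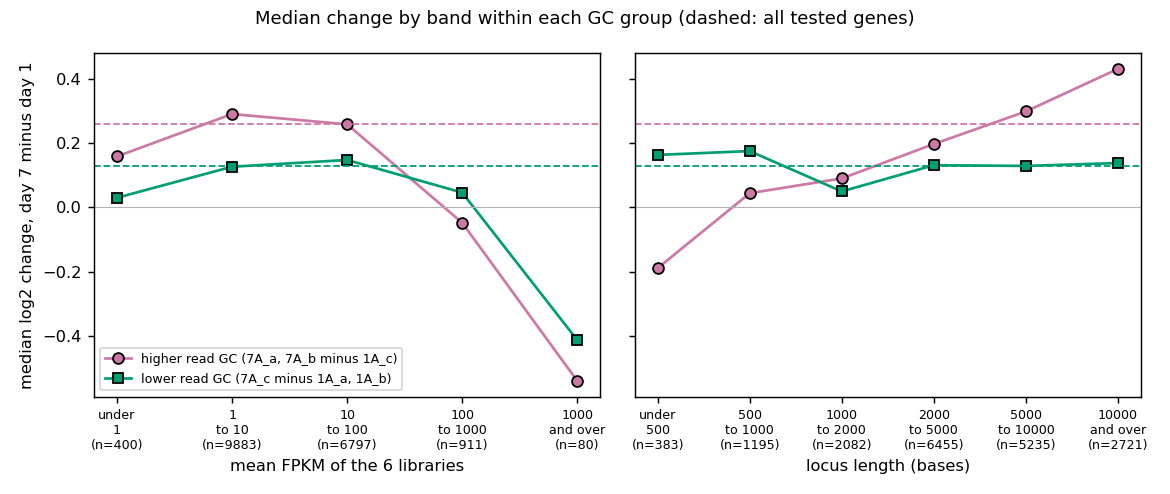
Median log2 change from day 1 to day 7 by mean FPKM (left) and by locus length (right), in the higher GC libraries (circles) and the lower GC libraries (squares), with dashed lines at the medians of all tested genes (0.26 and 0.13). Both groups fall at an FPKM of at least 1000 (-0.54 and -0.41), while the median rises with length only in the higher GC libraries (-0.19 to 0.43).

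The 7272 genes called the same way in 4 fits were chosen by this contrast, so their shares are given as a description. The risen genes held 4.63% of the FPKM sum in 1A_a, 4.65% in 1A_b and 7.26% in 1A_c, and 29.6% in 7A_a, 30.3% in 7A_b and 19.1% in 7A_c. The fallen genes went from 37.7% to 39.7% at day 1 down to 11.9% to 12.7% at day 7. The number of genes that together held 50% of the sum was 81 in 1A_a, 68 in 1A_b and 144 in 1A_c, and 238 in 7A_a, 227 in 7A_b and 107 in 7A_c. This number was higher at day 7 inside both GC groups, but 7A_c lay below 1A_c, so the days overlapped. The 10 highest genes of each library held 26.1% of the sum in 1A_a, 28.0% in 1A_b, 20.7% in 1A_c, 16.2% in 7A_a, 16.6% in 7A_b and 26.0% in 7A_c. The groups overlapped, and the difference of -5.34 percentage points was not larger than the spread (two-sided exact permutation test, p = 0.2). With 3 against 3 libraries the test cannot give less than 0.1, and this spread includes the difference between the GC groups. Without 7A_c the difference was -8.51 percentage points (exact permutation test, two-sided p = 0.2), and without 7A_a it was -3.64 (exact permutation test, two-sided p = 0.5). Inside the lower GC group the share was 26.0% at day 7 against 26.1% and 28.0% at day 1. Inside the higher GC group it was 16.2% and 16.6% against 20.7%. Of the 10 genes with the highest mean FPKM at each day, 5 were shared by both days, as were 56 of the top 100 and 623 of the top 1000. Pairs of single libraries of the same day and GC group shared 95 and 97 of their top 100, and those of the same day and different GC groups shared 69 to 83. Pairs of different days shared 57 to 60 within a GC group and 51 to 56 across GC groups.

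**Figure D5:**
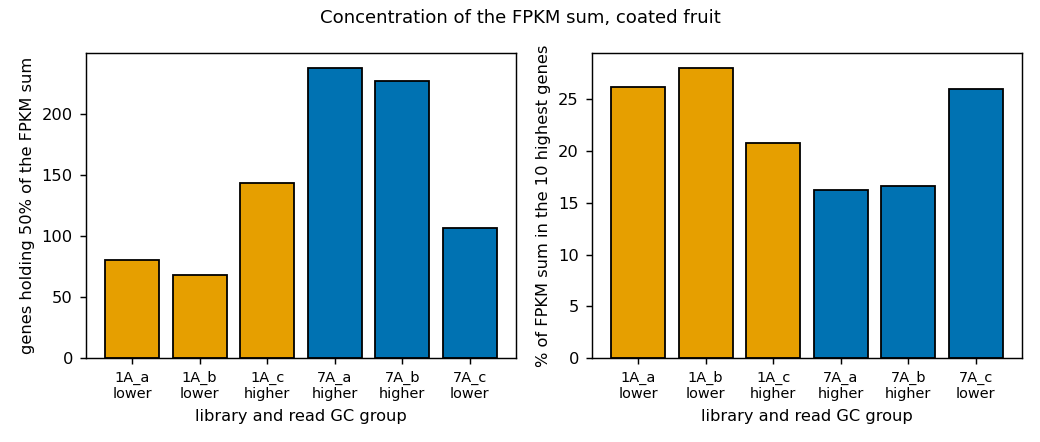
Number of genes that hold 50% of the FPKM sum (left) and share of the sum in the 10 highest genes (right) in each coated library, with its read GC group (orange, day 1; blue, day 7). More genes share the sum at day 7 within each GC group (68 and 81 against 107 in the lower, 144 against 227 and 238 in the higher).

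Ma03_g16510 (chromosome 3, 19115092 to 19115967) was the highest gene in each of the 6 coated libraries, and its level followed the GC group and not the day. Its FPKM was 81772 in 1A_a, 90054 in 1A_b and 87459 in 7A_c, and 38500 in 1A_c, 32216 in 7A_a and 35489 in 7A_b. The lower GC libraries were thus all above the others by more than the differences between days. The log2 change was -0.50 ± 0.67 (SE; limma, adjusted p = 0.55), and inside the GC groups it was 0.03 and -0.19. The number of detected genes (FPKM above 0) was 24541 in 1A_a, 24195 in 1A_b and 25131 in 1A_c, and 25536 in 7A_a, 25622 in 7A_b and 23162 in 7A_c. The library with fewer implied fragments was the lowest of all in the deposited values, unlike in the paper's count of transcripts. The difference of 151 genes was within the spread (two-sided exact permutation test, p = 0.9). Without 7A_c the mean of day 7 lay 957 genes higher (exact permutation test, two-sided p = 0.2, where the smallest possible p is 0.1). All day 7 libraries of that set belong to the higher GC group, as does 1A_c, the highest of day 1. Day and read GC are thus mixed in this difference. Inside the higher GC group, 7A_a and 7A_b lay above 1A_c, the only day 1 library of that group. Inside the lower GC group, 7A_c lay below 1A_a and 1A_b.

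Risen and fallen genes were found on all 11 chromosomes in similar shares. Between 27.5% (chromosome 8) and 31.8% (chromosome 3) of the tested genes were higher at day 7, and between 16.2% (chromosome 1) and 21.0% (chromosome 7) were lower. On unplaced sequence 51 of 189 genes were higher and 36 lower. Of the 27 tested genes on mitochondrial sequences, 8 were higher and 8 lower, and all mitochondrial genes together held 0.048% to 0.0995% of the FPKM sum. Neighbouring genes went the same way slightly more often than distant ones. Among pairs of directly neighbouring tested genes that were both called in the 4 fits, 56.7% (1702 of 3004) shared their direction, against 52.2% (1484 of 2841) of pairs 50 genes apart. The log2 changes of direct neighbours had an r of 0.084, and those of genes 50 apart had 0.006. Runs were counted among the tested genes, so genes that were not tested may lie inside them. The longest runs of risen genes held 8 genes each, on chromosome 11 from 22153115 to 22261905 and on chromosome 4 from 1590925 to 1665511. The longest run of fallen genes held 6 genes on chromosome 6 from 4526169 to 4592874. Overlapping and near-identical loci can share fragments, so runs may hold values that are not separate.

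The same genes were read out in control fruit, whose libraries enter the coated comparison only through the shared estimate of the spread. Calls in coated and control fruit are therefore not independent. In control fruit, 8396 of the 18071 genes (46.5%) were called. Of the coated calls, 76.2% were also called in control fruit, and of the control calls 79.9% were also called in coated fruit. These shares count 6710 genes called in both, of which 6645 had the same sign. The 100 largest rises of coated fruit had a median log2 change of 4.69 in coated and 4.55 in control fruit, and 97 of them were called higher in control. The 100 largest falls had -4.86 and -3.60, with 93 called lower in control. Genes chosen for a large change tend to be more extreme where they were chosen. When the 100 largest falls were chosen in control fruit instead, their median was -4.03 in control and -4.29 in coated fruit. For the 100 largest rises of control fruit the medians were 4.799 and 4.48.

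The difference of the day effects, coated minus control, was tested for each gene and called in 504 of 18071 (2.79%). In 141 the change was more positive and in 363 more negative under coating. After median-of-ratios scaling the split was 263 and 400. A block for GC group raised the number called to 4001, with 1188 more positive and 2813 more negative, and that block together with median-of-ratios scaling gave 2258 and 2148, so the excess of negative differences was not kept. Leaving out a library gave a total of 197 (without 1A_a) to 525 (without 7A_c). Of the 363 genes, 190 fell in both kinds of fruit, 49 rose in both and 124 had a positive change in control and a negative one in coated fruit. These are signs of the estimates. In 42 of the 363 genes the change was called in both kinds of fruit with opposite signs. By the same kind of rule, but without the condition on overlap, the largest negative difference among those called in all 4 fits was that of Ma10_g03440 (chromosome 10, 13724256 to 13725078). Its FPKM was 170 in 1A_a, 184 in 1A_b and 106 in 1A_c, and 0.24 in 7A_a, 0.12 in 7A_b and 1.45 in 7A_c, the day 7 values resting on 1 to 6 implied fragments per library. The control libraries of day 1 had 1.09, 0.36 and 2.80, and those of day 7 were listed at 0, 0 and 0.13. Of the 12 libraries, the 3 coated ones of day 1 thus stood far above the others. The log2 change was -6.64 ± 0.40 (SE; limma, adjusted p = 5.45e-07) in coated and -1.09 ± 0.40 (SE; limma, adjusted p = 0.045) in control fruit. Their difference was -5.55 ± 0.56 (SE; limma, adjusted p = 0.0015). This call was lost with limma-voom on the implied fragments (-4.84, adjusted p = 0.122), and the adjusted p over the alternatives ran from 1.17e-06 to 0.122.

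The largest positive difference among genes whose difference was called in all 4 fits was that of Ma03_g17050 (chromosome 3, 22336332 to 22337126). It was already low in coated fruit at day 1, with an FPKM of 4.49 in 1A_a, 2.68 in 1A_b and 1.56 in 1A_c, and at day 7 the values were 3.08 in 7A_a, 3.70 in 7A_b and 2.82 in 7A_c. The coated days overlapped (log2 change 0.17 ± 0.29, SE; limma, adjusted p = 0.65). In control fruit it had 39.5, 29.7 and 51.8 at day 1 and 1.79, 2.37 and 3.00 at day 7. The control libraries of day 1 thus stood above all others. The difference in the day effect was 3.76 ± 0.41 (SE; limma, adjusted p = 0.0018). It was not the coated but the control fruit in which this gene changed by the test (-3.59 ± 0.29, SE; limma, adjusted p = 4.88e-06).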

How the data were processed

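The authors used FastQC for read quality, TopHat for mapping to the DH Pahang version 2 genome of Musa acuminata, and Cufflinks for quantification. The deposited FPKM values and their interval bounds, in 1 table per library with 35273 rows, were the starting point. A row without an ID, a repeated row of an ID and a gene marked as failed in 1A_b were left out. Listed starts count from 0, since end minus start was a whole number of codons in 73.5% of the 1830 loci under 400 bases, so 1 was added.

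FPKM was not scaled again. Values were tested as log2(FPKM + 1) with limma 3.58.1 in R 4.3.3, with an intensity trend, in a single fit of 4 group means over all 12 libraries (8 residual degrees of freedom) and Benjamini-Hochberg adjustment over the 18071 tested genes. P-values measure the spread between these libraries. Implied fragments were obtained by dividing 2 times the FPKM by its distance from the upper bound and squaring, and cover counting error only. Their count was within 0.02 of a whole number in 80.5% to 85.5% of genes with 0.5 to 10 fragments in the coated libraries. Values per library were compared by exact permutation tests in Python 3.11.15 (numpy 2.4.6, pandas 2.3.3), and figures drawn with matplotlib 3.10.9. The fit was tested on simulated data with independent noise and no GC difference, so that test says nothing about the effect of read GC.

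Named genes are the largest rise and fall on the log2 scale and in FPKM under the conditions in the text, the largest difference from control each way among those called in all 4 fits with at least 10 implied fragments in each library of a group, and the highest gene. Level bands use the mean of all 6 libraries in place of the planned day 1 mean, which shares its error with the change. The comparison, gene sets and tests were chosen with earlier results of these data known. The GC group is read from the sequencing statistics of the paper. Replicate letters were not used to pair libraries, since no label says that they do. Deviations from the group means could not settle it: they followed read GC (r of 0.727 to 0.776 for pairs of like GC), and all same-lettered coated pairs were of unlike GC (-0.826 to -0.662).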

Additional observations from a re-analysis of the deposited data

Results flagged for a closer look

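The day effect differed between coated and control fruit in 504 genes by limma's interaction term. Among genes whose difference was called in all 4 fits, it was largest for Ma03_g17050 with 3.76 and for Ma10_g03440 with -5.55 on the log2 scale. In both genes the control and the coated libraries stood apart at day 1 and were low at day 7. A block for GC group gave 4001 genes with a differing day effect, and leaving out 1A_a gave 197. The Ma10_g03440 values of control fruit rest on few fragments, with 3 to 22 in the day 1 and 0 to 1 in the day 7 control libraries.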

How the results depend on the processing

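The count of 8804 genes called from day 1 to day 7 in coated fruit moved by over 1.5 times with the GC group as a block (13323), with an FPKM of at least 5 as the filter (5783 of 11613 genes tested) and with a test of changes beyond 2-fold (2032). It ranged from 7121 to 10251 when each of the 12 libraries was left out in turn, and was 7357 with the 6 coated libraries alone and 8954 with voom on the implied fragments. The fits added after seeing the data gave 13108 genes with the GC group as a block in the 6 coated libraries and 13104 with this block and no 7A_c. The 504 genes with a differing day effect were less stable. The count was 307 with a common sum, 322 with voom, 241 with a replicate block, 4001 with the GC group as a block and 4406 with that block and median-of-ratios scaling. Leaving out a library gave 197 (without 1A_a) to 525 (without 7A_c), and also 203 without 1K_a, 253 without 1K_b, 205 without 7K_b, 271 without 7K_c, 230 without 7A_a and 234 without 7A_b. The cause was not tested. The replicate block left 8503 genes for the day effect in coated fruit and changed no call of the 4 genes named for it. The sign of the difference in detected genes was not stable, at -273 to 957 genes when a coated library was left out. Values were negative without 1A_b, 7A_a or 7A_b. Ma03_g11920, Ma06_g18530 and Ma08_g20650 were called in the same direction in all 24 alternatives. Ma02_g16130 was called in 23 of them, but narrowly when 7A_b was left out (limma, adjusted p = 0.0499). Ma10_g03440 lost the call of its difference with voom (log2 difference -4.84, adjusted p = 0.122) among 23. Genes with few fragments are measured more coarsely in 7A_c, which has 6135600 implied fragments.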
